A study of Prunus persica with 25 samples.

Results

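The genes described here were low in vegetative buds of peach before chilling began, high through the middle of chilling accumulation, and low again after it was complete. They are 27 of the 26873 genes counted, and they were chosen by their measured values in the vegetative buds of year B. A gene was taken when the lower of its mean levels at 200CU and 475CU was at least 10 CPM (library-scaled counts) and at least 2 times the higher of its mean levels at Pre0CU and 930CU. Chilling was counted in Utah units (CU), which credit hours of cool temperature, and CPM is the count of a gene scaled by the total count of its library. *DAM5* and *DAM6* were left out by the rule. *DAM5* met it, with a ratio of 3.35, and *DAM6* did not, with a ratio of 1.97. The collections at 200CU and 475CU were made in November and the collection at 930CU in late December, so the peak fell in late autumn rather than in mid winter, and the genes are called the mid-chilling genes below.

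Buds of peach and other temperate trees stop visible growth before winter and need a period of chilling before they can open in spring. The DORMANCY-ASSOCIATED MADS-box (DAM) genes encode transcription factors that restrain bud growth and are known to rise and fall around this period. Genes whose level rises and falls with the same season can belong to dormancy, to cold acclimation or to the slow development that goes on inside the bud. The deposited tables give only locus identifiers, and none of the 27 could be matched to a gene name or product, so no function is given for any of them. None was among the 66 hormone genes or the 23 meristem genes listed by the study. Among the genes of those lists that reached 10 CPM at both 200CU and 475CU, the largest ratios were 1.503 for the hormone genes and 1.06 for the meristem genes.

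RNA was sequenced from buds of the cultivar Fantasia in 25 libraries, from separate winters called year A and year B. Vegetative buds were collected in year B at Pre0CU (before the first chilling unit), 200CU, 475CU and 930CU, and in year A at 0CU, 475CU and 770CU, with 3 libraries per collection. Flower buds were collected in year B at 930CU and Pre0CU, with 2 libraries each. The labels describe the 930CU collection only as later than 770CU. No treatment was applied, and all buds came from axillary triplets on mature field trees, in which a vegetative bud stands between flower buds, with a few trees making up a replicate. Total counts were 39891412 to 71239880 per vegetative library of year B, 39615840 to 68355366 in year A, and 44894673 to 61090788 in flower buds. The labels give polyA RNA for the 930CU vegetative and both flower bud collections and total RNA for the other vegetative collections, while 1 library kit is given for all. In vegetative buds of year B, any change from the earlier collections to 930CU therefore coincides with the change of RNA type. This includes the fall that the rule asks for. Season and RNA type cannot be told apart there, and the part of each was not tested. A median of 4474 genes had a count of 0 in the libraries of year A and 25.5 in those of year B. The 2263 genes at 0 throughout year A had medians of 0.793 to 0.823 CPM in the collections of year B, and levels near 1 CPM in year B are therefore not read as expression. Levels are not corrected for gene length and are not compared between genes.

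Within year B, 3 vegetative libraries stood apart. *LFY*, the floral meristem identity gene, was at 15.0 CPM in replicate 3 of 200CU and at 32.4 and 30.7 CPM in replicates 1 and 2 of 475CU, against 2.94 to 7.34 CPM in the other 9 libraries. The summed level of the 4 flower meristem markers (*LFY*, *AGL79*, *AGL20B* and *SEP1*) was 32.4 to 52.3 CPM in these 3 libraries, 12.8 to 21.0 CPM in the other 9, and 104 to 157 CPM in flower buds. Much of this separation was that of *LFY* itself, by which the 3 libraries were picked out. Without it the sum was 17.4 to 20.0 CPM in the 3 libraries, 7.72 to 17.2 CPM in the other 9 and 51.2 to 69.1 CPM in flower buds. *AGL79* was somewhat higher in the 3 (13.8 to 15.7 CPM, against 5.38 to 12.6 CPM), *SEP1* overlapped (2.16 to 2.73 CPM, against 0.773 to 2.45 CPM) and *AGL20B* was not raised (1.41 to 1.65 CPM, against 1.25 to 2.701 CPM). The 5 shoot meristem markers (*STM*, *KNAT1*, 2 further KNOX genes and a *CLAVATA3/ESR* gene) summed to 117 to 152 CPM in the same 3 libraries, 111 to 330 CPM in the other 9 and 151 to 310 CPM in flower buds, and so did not tell the bud types apart. Without the 3 libraries, the rule chose 21 genes, of which 15 were among the 27. Leaving out only the pair at 475CU gave 24 genes, 16 of them among the 27.

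The ratio of the lower middle mean to the higher end mean was 2.09 to 8.18 over the 27 genes, with a median of 2.87, and 13 genes reached 3. The largest, that of PRUPE_1G489400, was set against end means of 1.34 and 1.35 CPM, close to the level not read as expression. In 23 of the 27, all 6 libraries of 200CU and 475CU lay above all 6 libraries of Pre0CU and 930CU. Over all genes the same was true of 3.13%, and since these values chose the genes the count is a description only. The mean was higher at 200CU in 15 genes and at 475CU in 12. Just inside the fold limit were PRUPE_5G147300 (2.09), PRUPE_4G041800 (2.09) and PRUPE_1G309800 (2.17), and just outside it were PRUPE_8G122200 (2.00 after rounding), PRUPE_4G165600 (1.97) and PRUPE_4G029900 (1.96). Just inside the level limit were PRUPE_6G116500 (10.7 CPM), PRUPE_1G223600 (10.7 CPM) and PRUPE_1G489400 (11.1 CPM), and just outside it were PRUPE_8G063400 (9.49 CPM), PRUPE_8G025100 (6.93 CPM) and PRUPE_8G025600 (6.87 CPM).

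**Figure D1:**
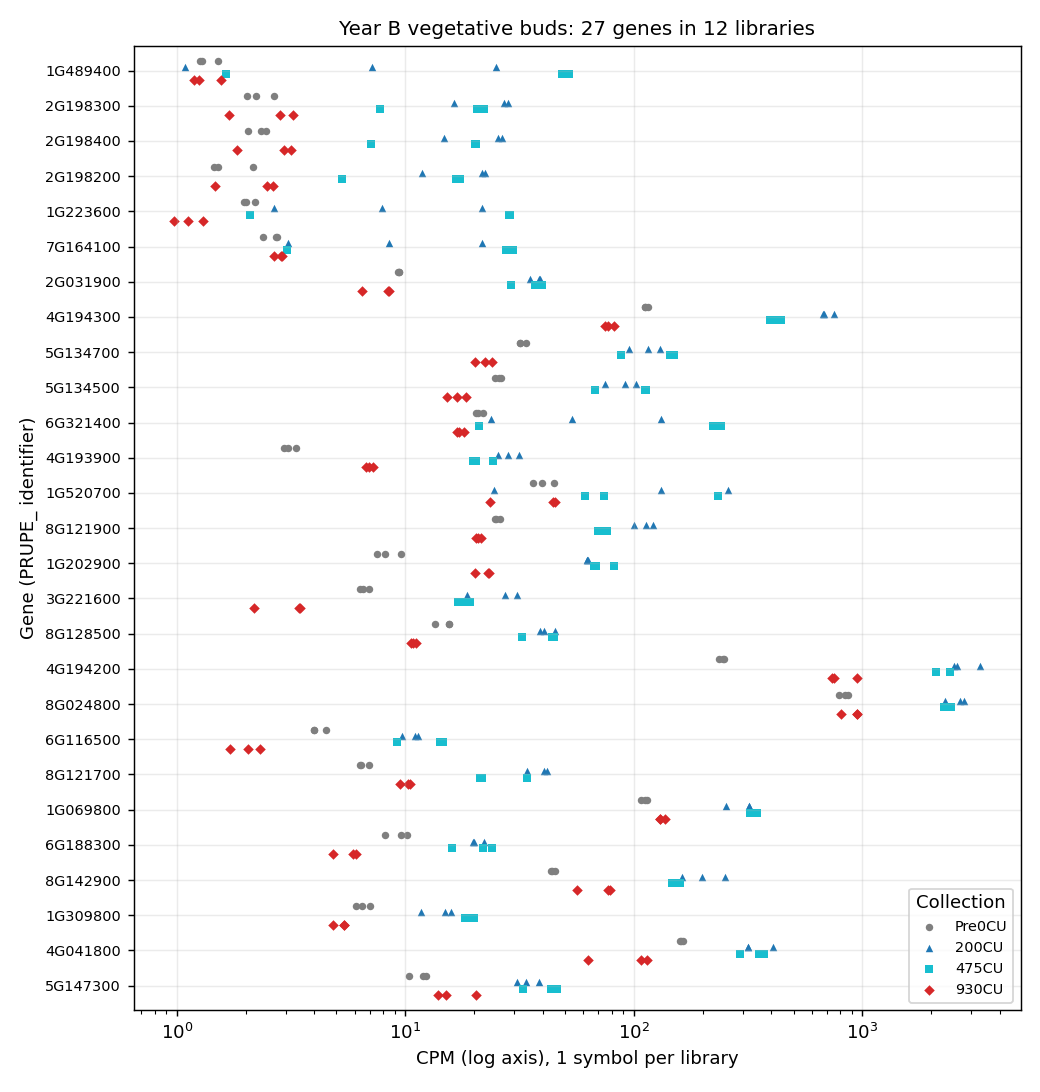
Levels of the 27 mid-chilling genes in the 12 vegetative bud libraries of year B, on a log axis of CPM with 1 symbol per library and the genes in the order of the ratio that chose them. In 23 rows the blue and cyan symbols (200CU and 475CU) lie wholly to the right of the grey and red ones (Pre0CU and 930CU), and in the rows of PRUPE_1G489400, PRUPE_1G223600, PRUPE_6G321400 and PRUPE_1G520700 they overlap.

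The genes differed in how closely the replicates followed each other, and they are set out below by that shape, which was read after the values were seen and carries no test. In 19 of the 27 the replicates were close, with an SD of at most 28.8% of the mean at 200CU or 475CU. A trio with adjacent identifiers varied together, 1 gene had replicates far apart, and 4 genes followed *LFY* from library to library in both years. Of the 19, PRUPE_6G116500, PRUPE_5G134700 and PRUPE_5G134500 also moved with *LFY* over the 6 middle libraries. Their log2-scale correlations were 0.956 to 0.976, against 0.969 to 0.991 in the 4 and -0.704 to 0.909 in the others of the 19. In year A theirs were 0.283 to 0.444, against 0.872 to 0.949 in the 4. PRUPE_6G116500, PRUPE_6G188300, PRUPE_4G041800 and PRUPE_5G147300 were not chosen without the *LFY*-high 475CU libraries.

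Among the 19, several had neighbouring identifiers on chromosome 4. PRUPE_4G194300 was at 112, 112 and 115 CPM at Pre0CU, 671, 681 and 752 CPM at 200CU, 396, 405 and 441 CPM at 475CU, and 82.1, 75.1 and 76.98 CPM at 930CU. It was highest at 200CU, where the mean was 1.70 times that at 475CU, and no library of one collection overlapped another collection. The next identifier, PRUPE_4G194200, stood at 235, 245 and 249 CPM at Pre0CU, 2520.3, 2597 and 3278 CPM at 200CU, 2095, 2101 and 2417 CPM at 475CU, and 944, 750.0 and 740.1 CPM at 930CU. Unlike its neighbour it was not back at its starting level at 930CU, where the mean was 3.34 times the Pre0CU mean and the RNA type also differed. PRUPE_4G193900, with 2 identifiers between it and PRUPE_4G194200, was at 2.94, 3.34 and 3.07 CPM at Pre0CU, 25.4, 28.1 and 31.5 CPM at 200CU, 20.3, 19.8 and 24.1 CPM at 475CU, and 6.71, 7.24 and 6.95 CPM at 930CU. Here too the 930CU libraries all lay above the Pre0CU libraries, by 2.24 times in the mean.

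PRUPE_5G134500 and PRUPE_5G134700, with 1 identifier between them, had nearly the same profile. PRUPE_5G134700 was at 33.6, 31.8 and 31.6 CPM at Pre0CU, 95.3, 116 and 131 CPM at 200CU, 151, 144 and 88.2 CPM at 475CU, and 20.1, 24.0 and 22.3 CPM at 930CU. PRUPE_5G134500 was at 0.528 to 0.819 times this level in each of the 25 libraries. Both were lower at 930CU than at Pre0CU in every library, and both had their lowest 475CU value in replicate 3. PRUPE_8G121900 and PRUPE_8G121700, likewise with 1 identifier between them, were higher at 200CU than at 475CU, by 1.54 and 1.51 times. PRUPE_8G121900 was at 24.6, 24.9 and 25.9 CPM at Pre0CU, 100.1, 113 and 121 CPM at 200CU, 70.4, 69.9 and 76.1 CPM at 475CU, and 20.3, 21.4 and 20.7 CPM at 930CU. A further identifier of that stretch, PRUPE_8G122200, was the gene nearest to the fold limit from outside. Whether genes with neighbouring identifiers are copies that share reads could not be checked, since no sequence was available.

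Several other genes of the 19 had high counts. PRUPE_8G024800 stood at 843, 861 and 788 CPM at Pre0CU, 2664, 2784 and 2304 CPM at 200CU, 2433, 2267 and 2329 CPM at 475CU, and 806, 948 and 952 CPM at 930CU. The ends overlapped each other, and so did the middle collections. PRUPE_4G041800 was at 165, 162 and 159 CPM at Pre0CU, 316, 407 and 316 CPM at 200CU, 370.4, 355 and 291 CPM at 475CU, and 63.3, 114 and 108 CPM at 930CU. Its 930CU libraries all lay below its Pre0CU libraries. PRUPE_1G069800 was at 114, 112 and 108 CPM at Pre0CU, 253, 318 and 318 CPM at 200CU, 345, 346 and 323 CPM at 475CU, and 138, 131 and 129.7 CPM at 930CU, so that its ends differed in the opposite sense. PRUPE_8G142900 was at 43.4, 43.9 and 45.2 CPM at Pre0CU, 162, 199 and 251 CPM at 200CU, 160.0, 159 and 147 CPM at 475CU, and 56.5, 78.7 and 76.8 CPM at 930CU.

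PRUPE_2G031900 had the largest ratio of the 19, at 3.78. It was at 9.29, 9.38 and 9.37 CPM at Pre0CU, 35.2, 38.5 and 38.7 CPM at 200CU, 39.7, 37.1 and 29.1 CPM at 475CU, and 8.48, 8.38 and 6.49 CPM at 930CU, a plateau over the middle collections. PRUPE_1G202900 was at 8.17, 7.51 and 9.56 CPM at Pre0CU, 62.5, 62.7 and 63.1 CPM at 200CU, 66.8, 68.5 and 82.0 CPM at 475CU, and 20.3, 23.0 and 23.3 CPM at 930CU. It kept 2.64 times its starting mean at 930CU. The means of the 6 others, PRUPE_3G221600, PRUPE_8G128500, PRUPE_6G116500, PRUPE_6G188300, PRUPE_1G309800 and PRUPE_5G147300, had ratios of 2.73, 2.72, 2.58, 2.21, 2.17 and 2.09 in that order. All of them but PRUPE_5G147300 were lower at 930CU than at Pre0CU, with no overlap between the libraries.

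The trio PRUPE_2G198200, PRUPE_2G198300 and PRUPE_2G198400 has consecutive identifiers on chromosome 2. PRUPE_2G198300 was at 2.21, 2.66 and 2.04 CPM at Pre0CU, 26.9, 28.1 and 16.4 CPM at 200CU, 22.1, 20.6 and 7.73 CPM at 475CU, and 1.69, 3.22 and 2.82 CPM at 930CU. The middle libraries lay above the ends, but replicate 3 was the lowest at both 200CU and 475CU. The end means of the trio, 1.71 to 2.64 CPM, were not far above the level not read as expression. The size of its ratios is therefore uncertain. PRUPE_2G198200 was at 0.516 to 0.930 times and PRUPE_2G198400 at 0.776 to 1.09 times the level of PRUPE_2G198300 over the 25 libraries, while PRUPE_2G198300 itself ranged over 17.8 times. The trio thus gave nearly 1 measurement, and it was not chosen when the *LFY*-high 475CU libraries were left out, since replicate 3 alone then stood for 475CU.

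PRUPE_1G520700 had the widest scatter outside the genes that followed *LFY*. It was at 36.2, 39.8 and 44.8 CPM at Pre0CU, 24.3, 131 and 259 CPM at 200CU, 60.9, 73.9 and 234 CPM at 475CU, and 23.5, 44.1 and 45.1 CPM at 930CU. Replicate 1 of 200CU lay among the end libraries, and replicate 3 was the highest at both 200CU and 475CU. The gene was not chosen without replicate 3 of 200CU, nor without replicate 3 of 475CU.

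The remaining 4 genes, PRUPE_1G489400, PRUPE_1G223600, PRUPE_7G164100 and PRUPE_6G321400, were raised in some middle libraries and not in others. PRUPE_1G489400 was at 1.51, 1.26 and 1.29 CPM at Pre0CU, 1.08, 7.16 and 25.0 CPM at 200CU, 52.0, 48.7 and 1.65 CPM at 475CU, and 1.25, 1.56 and 1.19 CPM at 930CU. PRUPE_6G321400 was at 20.8, 21.8 and 20.4 CPM at Pre0CU, 23.8, 53.5 and 131 CPM at 200CU, 240.3, 222 and 21.0 CPM at 475CU, and 17.2, 18.1 and 16.8 CPM at 930CU. Replicate 1 of 200CU and replicate 3 of 475CU were at or near the end collections, and *LFY* was at 3.70 and 4.01 CPM in these libraries.

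PRUPE_1G223600 was at 2.66, 7.88 and 21.7 CPM at 200CU and 28.5, 28.6 and 2.09 CPM at 475CU, with end libraries of 0.974 to 2.19 CPM. PRUPE_7G164100 was at 3.07, 8.48 and 21.7 CPM at 200CU and 29.7, 27.6 and 3.05 CPM at 475CU, with end libraries of 2.38 to 2.89 CPM. In all 4 genes the 3 highest vegetative libraries of year B were those with *LFY* above 10 CPM, and the fourth was replicate 2 of 200CU, where *LFY* was at 7.34 CPM. At 475CU the mean of replicates 1 and 2 was 9.40 times the value of replicate 3 in PRUPE_7G164100 and 11.0 times in PRUPE_6G321400. None of the 4 was chosen without replicate 3 of 200CU. Their pattern moved with *LFY*. Within 200CU and 475CU, *AGL79* and *SEP1* were also highest in the 3 libraries with *LFY* above 10 CPM, while *AGL20B* was not. The part of flower tissue in these libraries was not tested.

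**Figure D2:**
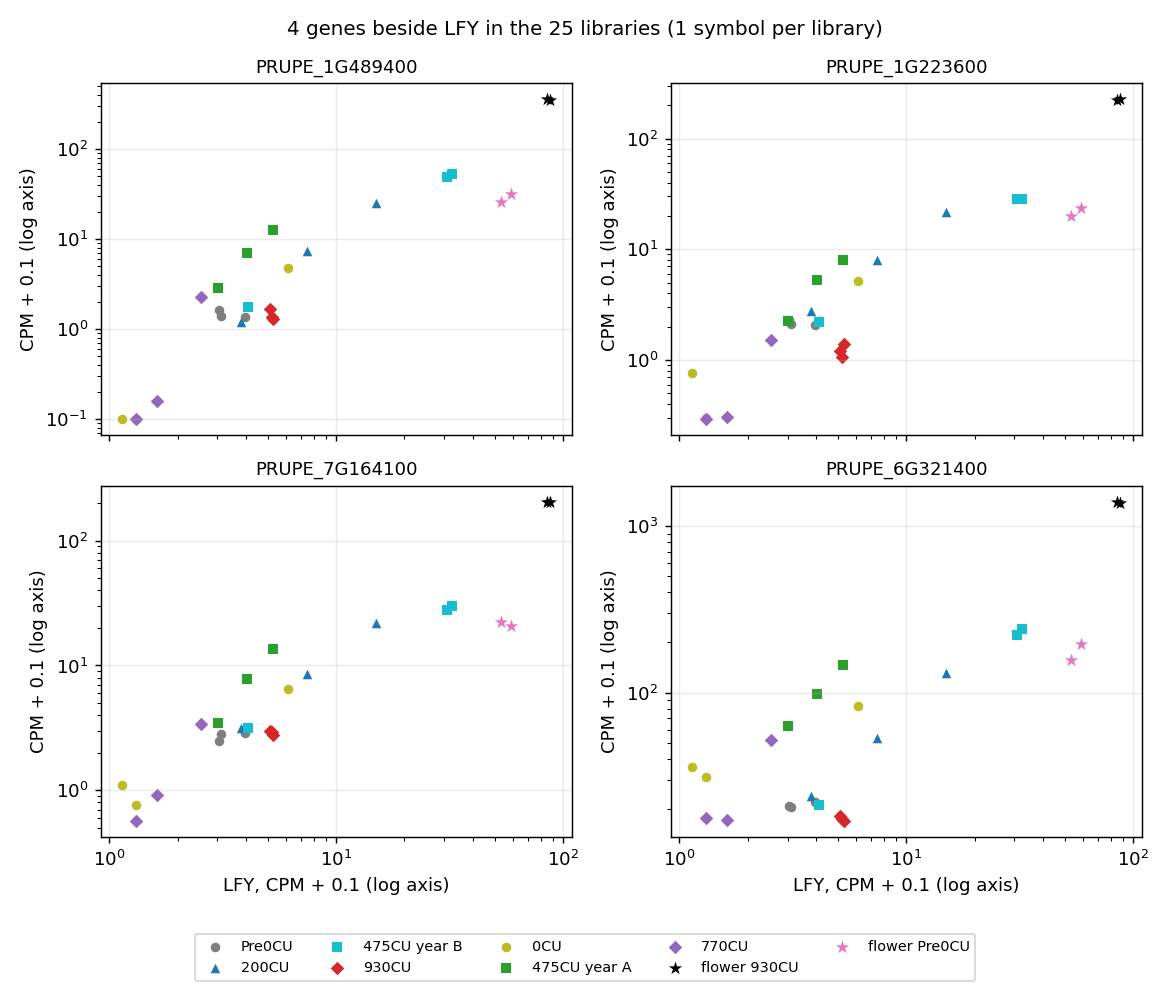
Levels of PRUPE_1G489400, PRUPE_1G223600, PRUPE_7G164100 and PRUPE_6G321400 against *LFY* in the 25 libraries, both on log axes of CPM with 0.1 added, with colours and shapes for the collections. The 475CU libraries of year B (cyan) are split between replicates 1 and 2, at 30.7 and 32.4 CPM of *LFY*, and replicate 3, at 4.01 CPM; flower buds at 930CU (black stars) are at the top right of each panel.

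The vegetative buds of year A were not used in choosing the genes and ask whether their levels also changed during chilling in another season. That season was sampled at 0CU at the end of October, at 475CU in early December and at 770CU in late December. No chilling unit had accumulated at 0CU, so it stands for the start of chilling. By calendar date it lay close to the 200CU collection of year B, made in early November, and well after Pre0CU, made in early September. In year B 15 of the 27 genes were higher at 200CU than at 475CU, and year A had no 200CU libraries. The contrast of 475CU with 0CU therefore cannot show whether the genes rose from their level at the time of Pre0CU. The main result was a fall by 770CU, while a rise from 0CU to 475CU was not seen in the 27 genes as a set. Of the 27 genes, 15 fell at 770CU against 475CU and none rose (8.21% of the 20950 genes tested fell and 3.95% rose). The median log2 fold change was -1.17 for the 27 and 0.01 for all genes tested, and all 27 values were below 0. At 770CU against 0CU, 16 of the 27 fell and none rose (20.9% and 15.5% of all genes), with medians of -1.15 and 0.02. These calls were made with the quasi-likelihood test of edgeR at an adjusted p below 0.05 and a fold change above 1.4, in 1 fit of the 9 libraries that the contrasts share. In neither contrast did any of the 27 rise at an unadjusted p below 0.05 (edgeR) or with DESeq2. The same-numbered libraries of 475CU and 770CU deviated together (correlations of 0.13 to 0.28), a pairing read from these counts and given by no label. Differently numbered libraries of 0CU and 475CU reached 0.17, so correlations of this size do not establish it. In the fit of 9 libraries the block also covered 0CU, where the numbers did not pair. The blocked counts are therefore given as a variant beside the 15. With a replicate block, 19 of the 27 fell at 770CU against 475CU in the fit of 9 libraries, and 21 of the 26 tested in a fit of these 6 libraries alone, where 17 fell without the block. Over all genes these blocked fits called 2673 and 3170 genes, 32.5% and 33.1% of them higher. The fit of 6 libraries without the block called 2575 (31.3% higher), and the main fit 2547 (32.5% higher). Beside the 15, the blocked fits both called PRUPE_1G489400, PRUPE_1G223600, PRUPE_7G164100 and PRUPE_1G069800, and the smaller one also called PRUPE_6G188300 and PRUPE_8G142900.

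At 475CU against 0CU few of the 27 genes were called. Of them, 2 rose and 2 fell, against 10.8% and 13.9% of all genes tested, and the median log2 fold change was -0.15 for the 27 and -0.01 for all genes. The highest mean of year A was at 0CU in 16 of the 27 genes, at 475CU in 11 and at 770CU in none. Over the 24610 genes with any count in year A, these shares were 47.7%, 17.7% and 34.7%.

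PRUPE_4G194300 fell at each step. It was at 205, 197 and 205 CPM at 0CU, 92.0, 89.2 and 63.3 CPM at 475CU, and 16.9, 21.7 and 12.3 CPM at 770CU, and no collections overlapped. The log2 fold change was -1.21 ± 0.18 (SE, edgeR adjusted p = 4.8e-04) for 475CU against 0CU, -2.28 ± 0.18 (adjusted p = 7.3e-05) for 770CU against 475CU, and -3.50 ± 0.19 (adjusted p = 5.8e-07) for 770CU against 0CU. Its neighbour PRUPE_4G194200 was at 806, 976 and 952 CPM at 0CU, 1099.5, 1135 and 806 CPM at 475CU, and 398, 606 and 343 CPM at 770CU. Its log2 fold change was -1.20 ± 0.19 at 770CU against 475CU (edgeR adjusted p = 0.0024) and its value for 475CU against 0CU was 0.26 ± 0.19 (adjusted p = 0.31).

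Among the called genes without overlap, the other largest falls were those of PRUPE_6G116500 and PRUPE_3G221600. PRUPE_6G116500 was at 6.14, 9.84 and 8.75 CPM at 0CU, 4.68, 5.14 and 1.57 CPM at 475CU, and 0.583, 0.878 and 0.326 CPM at 770CU, which gave -2.65 ± 0.44 for 770CU against 475CU (edgeR adjusted p = 0.0030) and -3.67 ± 0.45 for 770CU against 0CU (adjusted p = 7.9e-05). PRUPE_3G221600 was at 22.4, 21.9 and 20.3 CPM at 0CU, 18.6, 16.5 and 9.80 CPM at 475CU, and 3.58, 3.19 and 2.48 CPM at 770CU. Its log2 fold changes were -2.30 ± 0.21 against 475CU (adjusted p = 1.4e-04) and -2.72 ± 0.21 against 0CU (adjusted p = 4.6e-06). In both genes the 770CU libraries lay below every library of the other collections.

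Of the 4 genes called at 475CU against 0CU, PRUPE_4G194300 and PRUPE_1G069800 fell and PRUPE_8G024800 and PRUPE_5G134700 rose. PRUPE_1G069800 was at 298, 328 and 239 CPM at 475CU, against 628, 644 and 394 CPM at 0CU, with a log2 fold change of -0.85 ± 0.18 (edgeR adjusted p = 0.0045). PRUPE_8G024800 was at 3204, 3520.4 and 3457 CPM at 475CU, against 2674, 2927 and 2018 CPM at 0CU, with a log2 fold change of 0.52 ± 0.14 (adjusted p = 0.014). At 770CU it stood at 3050.2, 2691 and 2759.8 CPM, and its values of -0.29 against 475CU and 0.23 against 0CU were not called, so that it was the only 1 of the 27 whose 770CU value was above that of 0CU. PRUPE_5G134700 was at 64.0, 50.3 and 68.5 CPM at 475CU, against 16.6, 52.2 and 27.8 CPM at 0CU. Its log2 fold change of 1.04 ± 0.33 (adjusted p = 0.029) was called although replicate 2 of 0CU lay among the 475CU libraries, and at 770CU it was at 15.6, 19.3 and 12.5 CPM, a log2 fold change of -1.97 ± 0.34 against 475CU (adjusted p = 0.0033).

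**Figure D3:**
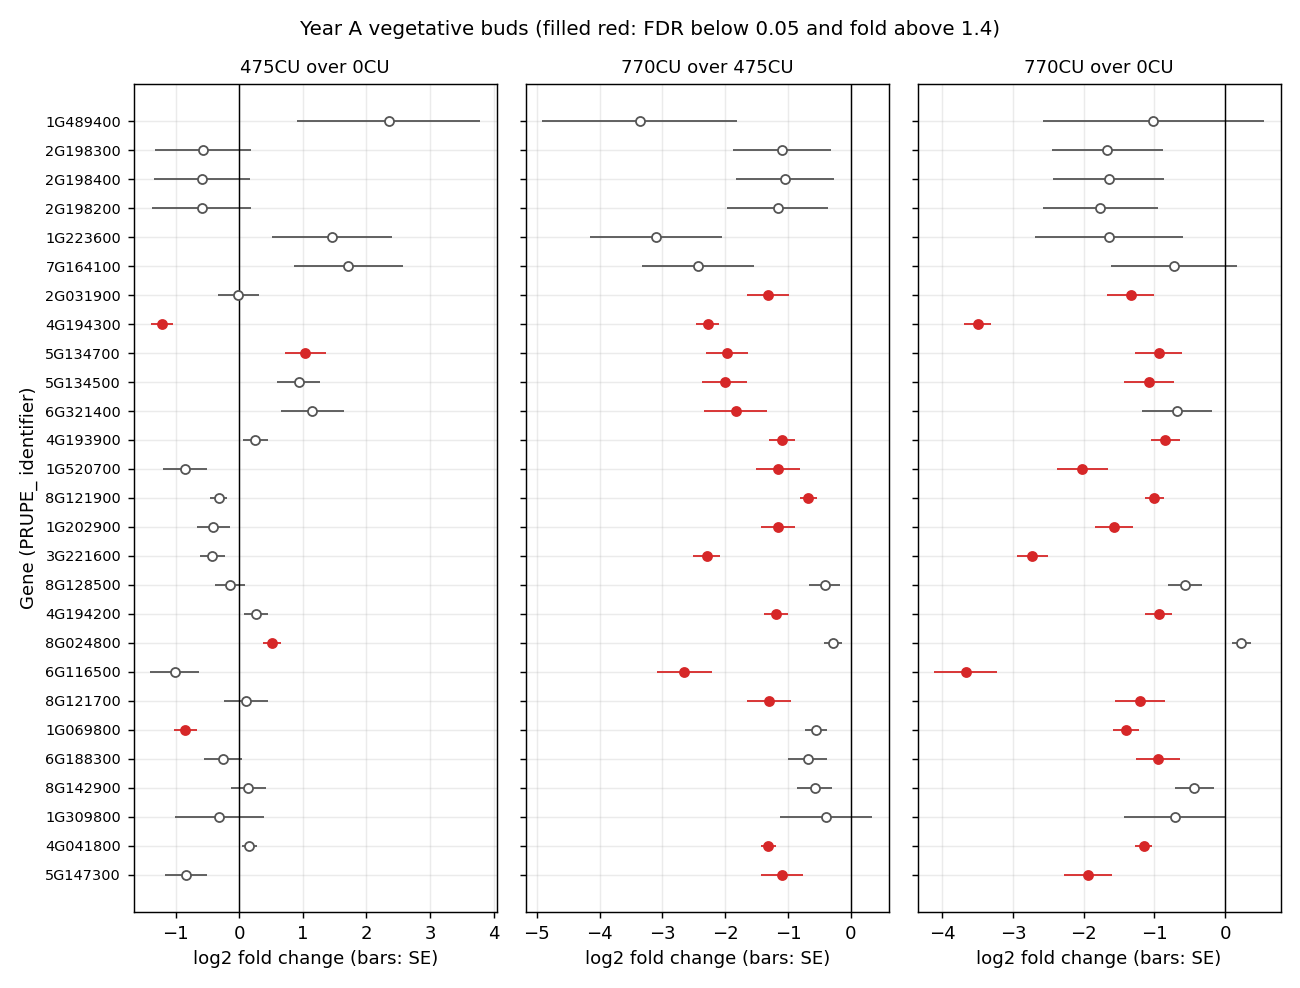
Log2 fold changes with their standard errors for the 27 genes in the vegetative buds of year A, for 475CU over 0CU (left), 770CU over 475CU (middle) and 770CU over 0CU (right), with filled red symbols for called genes. In the middle panel every symbol lies left of 0 and 15 are called, whereas the left panel has 4 called genes, 2 on each side.

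The 19 genes with close replicates held 13 of the 15 falls at 770CU against 475CU and 15 of the 16 at 770CU against 0CU. The falls of PRUPE_8G121900, PRUPE_8G121700, PRUPE_4G193900, PRUPE_1G202900, PRUPE_2G031900 and PRUPE_4G041800 at 770CU against 475CU had log2 fold changes of -1.32 to -0.68. PRUPE_4G041800 was at 96.7, 77.04 and 90.3 CPM at 770CU, against 227, 202 and 216 CPM at 475CU, with no overlap and an edgeR adjusted p of 1.1e-04. PRUPE_8G128500, PRUPE_8G142900 and PRUPE_1G309800 were called in none of the 3 contrasts without the replicate block. With it, PRUPE_8G142900 fell at 770CU against 475CU in the fit of 6 libraries. PRUPE_8G128500 fell at 770CU against 0CU, whose libraries were not found to pair by number. PRUPE_1G309800 was at only 0.136 to 0.242 CPM in the means of year A, against a lower middle mean of 14.2 CPM in year B.

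The trio PRUPE_2G198200, PRUPE_2G198300 and PRUPE_2G198400 was called in no contrast of year A. PRUPE_2G198300 was at 7.52, 30.1 and 8.10 CPM at 0CU, 22.0, 1.71 and 4.68 CPM at 475CU, and 5.21, 4.54 and 3.79 CPM at 770CU. A single library was high at 0CU and another at 475CU, and the 770CU libraries lay below all of 0CU. PRUPE_1G520700 was at 788, 410.4 and 272 CPM at 0CU, 295, 215 and 256 CPM at 475CU, and 145, 125 and 80.1 CPM at 770CU. Its log2 fold change was -1.16 ± 0.35 at 770CU against 475CU (edgeR adjusted p = 0.043) and -2.02 ± 0.36 against 0CU (adjusted p = 9.2e-04).

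In year A, *LFY* was at 1.04, 1.21 and 6.05 CPM at 0CU, 3.93, 5.14 and 2.91 CPM at 475CU, and 1.21, 1.52 and 2.44 CPM at 770CU. PRUPE_1G489400 was at 0, 0 and 4.64 CPM at 0CU, 6.90, 12.3 and 2.78 CPM at 475CU, and 0, 0.0585 and 2.16 CPM at 770CU. PRUPE_6G321400 was at 35.7, 30.9 and 82.4 CPM at 0CU, 97.8, 146 and 62.6 CPM at 475CU, and 17.5, 17.1 and 51.9 CPM at 770CU. In these genes, as in PRUPE_1G223600 and PRUPE_7G164100, the 5 highest libraries of year A were the 5 with the most *LFY*, namely replicate 3 of 0CU, the 475CU libraries and replicate 3 of 770CU. Of the 4 genes, PRUPE_6G321400 was called, with a log2 fold change of -1.83 ± 0.50 at 770CU against 475CU (edgeR adjusted p = 0.030), and the others had values of -3.36 to -2.44 with adjusted p of 0.064 to 0.16. With the replicate block, whose pairing was read from the counts, these others were called as well. Their edgeR adjusted p was 0.028 to 0.044 in the fit of 9 libraries and 0.0040 to 0.013 in the fit of 6.

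Fewer falls after 475CU were called without the libraries that had more *LFY*. Fewer genes were called in all as well, so the loss of calls was not confined to the 27. With the 3 libraries of year A above 3 CPM of *LFY* left out, which leaves replicate 3 alone at 475CU and assumes that it varies like the other groups, 5 of the 27 genes fell at 770CU against 475CU: PRUPE_4G194300, PRUPE_5G134700, PRUPE_5G134500, PRUPE_3G221600 and PRUPE_4G041800. Of the 10 lost calls, some kept much of their size, such as PRUPE_1G520700 (-1.20 on the log2 scale, against -1.16 with all libraries), PRUPE_8G121700 (-1.49, against -1.30), PRUPE_8G121900 (-0.63, against -0.68) and PRUPE_4G194200 (-0.91, against -1.20). Others were much smaller, such as PRUPE_5G147300 (-0.21, against -1.09) and PRUPE_2G031900 (-0.42, against -1.32). With 1 library left at 475CU, lost calls alone do not tie a fall to *LFY*. At 475CU against 0CU, PRUPE_4G194300 and PRUPE_1G069800 then had log2 fold changes of -1.57 and -1.31, and PRUPE_5G134700 and PRUPE_8G024800 had 1.12 and 0.41. At 770CU against 0CU, PRUPE_6G116500, PRUPE_4G194300 and PRUPE_3G221600 had -3.66, -3.53 and -2.81. Without replicate 1 of 475CU alone, 9 of the 27 genes fell at 770CU against 475CU, and 1682 genes were called in all, from 2547. Replicate 3 of 475CU was the lowest of its collection in 17 of the 27 genes in year A and in 19 of the 27 in year B. Other collections were as uneven. The lowest was replicate 1 of 200CU in 21 genes, replicate 1 of 0CU in 18 and replicate 3 of 770CU in 18. The shares over all genes were not counted.

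In flower buds the 27 genes went both ways between Pre0CU and 930CU. Of the 27, 8 rose and 14 fell at 930CU against Pre0CU (edgeR, 4 libraries), against 21.4% and 21.8% of the 26657 genes tested, and 5 were not called. The median log2 fold change was -0.80 for the 27 and 0.00 for all genes. The collections at 200CU and 475CU were not analysed here for flower buds, so a peak between these ends could not be looked for. All 14 falls were among the 19 genes with close replicates, and the 8 rises were the 4 genes that followed *LFY*, the trio and PRUPE_1G520700.

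The 3 largest rises were in genes that followed *LFY*. PRUPE_1G489400 was at 354 and 350.0 CPM at 930CU, against 25.6 and 31.7 CPM at Pre0CU, with a log2 fold change of 3.48 ± 0.10 (SE, edgeR adjusted p = 2.9e-07). PRUPE_1G223600 was at 221 and 225 CPM at 930CU, against 19.8 and 23.6 CPM at Pre0CU, with a log2 fold change of 3.22 ± 0.09 (adjusted p = 2.7e-07). PRUPE_7G164100 was at 204 and 205 CPM at 930CU, against 22.2 and 20.7 CPM at Pre0CU, with a log2 fold change of 3.11 ± 0.07 (adjusted p = 1.5e-07).

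PRUPE_6G321400 was at 1403 and 1382 CPM at 930CU in flower buds, against 156 and 196 CPM at Pre0CU, a log2 fold change of 2.84 ± 0.11 (edgeR adjusted p = 7.4e-07). *LFY* was at 84.7 and 87.8 CPM at 930CU, against 53.1 and 59.1 CPM at Pre0CU. At 930CU the flower bud means of PRUPE_7G164100 and PRUPE_6G321400 were 72.9 and 80.1 times the vegetative bud means. No ratio is given for PRUPE_1G489400 and PRUPE_1G223600, whose vegetative means at 930CU, 1.34 and 1.13 CPM, are near the level not read as expression. The vegetative values had been used in choosing the genes, so these ratios carry no test.

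The rises of the trio rested on 1 library. Its Pre0CU means in flower buds, 1.42 to 2.17 CPM, were not far above the level not read as expression. PRUPE_2G198300 was at 3.80 and 26.8 CPM at 930CU, against 2.24 and 2.03 CPM at Pre0CU, with a log2 fold change of 2.698 ± 0.795 (edgeR adjusted p = 0.021), and PRUPE_2G198200 and PRUPE_2G198400 showed the same high and low library. PRUPE_1G520700 was at 157 and 237 CPM at 930CU, against 114 and 44.3 CPM at Pre0CU, a log2 fold change of 1.17 ± 0.39 (adjusted p = 0.035). When either Pre0CU library was left out, 5 rises remained above the threshold, and without replicate 2 of 930CU, 6 did. Over all genes these fits called 10958, 11046 and 10990 genes in that order, from 11521.

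Among the falls, PRUPE_4G041800 was at 36.0 and 39.9 CPM at 930CU, against 185 and 212 CPM at Pre0CU, with a log2 fold change of -2.53 ± 0.09 (edgeR adjusted p = 6.3e-07). PRUPE_5G134700 was at 8.84 and 12.1 CPM at 930CU, against 42.8 and 64.8 CPM at Pre0CU, with a log2 fold change of -2.50 ± 0.22 (adjusted p = 3.7e-05). PRUPE_5G134500 was at 7.24 and 9.65 CPM at 930CU, against 34.0 and 51.7 CPM at Pre0CU, with a log2 fold change of -2.49 ± 0.21 (adjusted p = 3.6e-05). In each of them the libraries of the collections were well apart.

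The other 11 falls in flower buds had log2 fold changes of -2.13 to -0.80 and included PRUPE_4G194300, PRUPE_8G024800 and PRUPE_1G069800. PRUPE_4G194300 was at 30.3 and 27.8 CPM at 930CU, against 74.2 and 84.8 CPM at Pre0CU, a log2 fold change of -1.59 ± 0.08 (edgeR adjusted p = 3.0e-06). PRUPE_8G024800 was at 553 and 557 CPM at 930CU, against 960.4 and 943 CPM at Pre0CU, a log2 fold change of -0.92 ± 0.06 (adjusted p = 7.1e-06). The 5 genes that were not called were PRUPE_4G193900, PRUPE_1G202900, PRUPE_4G194200, PRUPE_8G121700 and PRUPE_8G142900, with values between 0.04 and 0.39. These were also genes that kept more than their starting level in vegetative buds at 930CU, where their means were 1.54 to 3.34 times those of Pre0CU. The RNA type also differed between those vegetative collections. PRUPE_5G147300 and PRUPE_1G069800 stood above Pre0CU in all vegetative libraries of 930CU as well (1.42 and 1.19 times in the mean), but fell in flower buds. PRUPE_4G194200, for example, was at 324 and 274 CPM in flower buds at 930CU, against 275 and 251 CPM at Pre0CU, and at 944, 750.0 and 740.1 CPM in vegetative buds at 930CU.

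**Figure D4:**
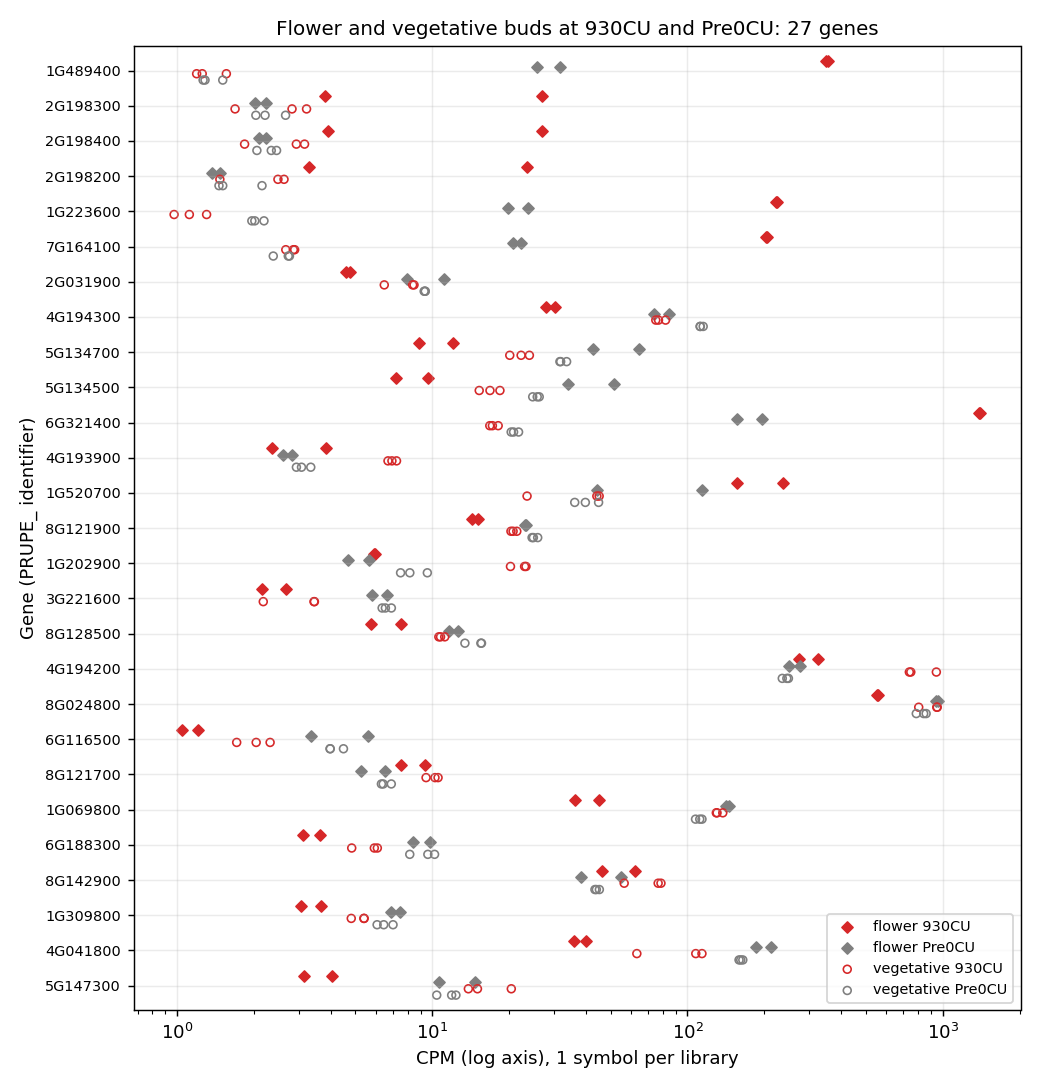
Levels of the 27 genes at 930CU (red) and Pre0CU (grey) in flower buds (filled) and vegetative buds (open), on a log axis of CPM with 1 symbol per library. The filled red symbols of PRUPE_1G489400, PRUPE_1G223600, PRUPE_7G164100 and PRUPE_6G321400 lie far to the right of all others in their rows, and in 14 rows the filled red symbols lie left of the filled grey ones as called falls.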

How the data were processed

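The deposited values were raw counts per gene without normalization. For these, the authors used fastp for trimming, aligned the reads with STAR to the NCBI v2 peach genome and counted reads over exons with bedtools 2.30.1 (the version in the submitters' processing notes), with duplicates removed; the strand setting of the counting is not given in the sources used here. Most counts above 0 in year A were even (median 96.2% per library, against 49.9% in year B), as when both reads of a pair are counted. All value columns were used, and columns gave the collection and a replicate number. No pair of replicates was a copy (chi-square per gene of 2.88 or more over 23 pairs).

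Tests used edgeR 4.0.16 in R 4.3.3 with TMM, filterByExpr at its default minimum of 10 counts and 15 in total, the quasi-likelihood test and Benjamini-Hochberg adjustment over all genes tested. One fit held the 9 libraries of year A and another the 4 flower bud libraries; all 27 genes passed both filters. A call needed an FDR under 0.05 together with a change of more than 1.4-fold. Standard errors were the log2 fold change divided by the root of the F statistic. Columns share replicate numbers. The deviations of same-numbered libraries from their collection means correlated at 0.13 to 0.28 between 475CU and 770CU of year A (other pairs -0.19 to 0.06), so these were taken as paired by number, from the data and not the labels. Between 0CU and these collections the correlations of same-numbered libraries were -0.17 to 0.10, and in flower buds -0.01, so those were not. Differently numbered libraries of 0CU and 475CU reached 0.17, so correlations of this size do not establish a pairing. Nothing was tested within the 12 libraries that chose the genes. Levels are CPM by column total, without TMM. P-values measure the spread between replicates, each made from a few trees, and cover 1 season each. The fits were checked on simulated counts with 200 changed genes. That simulation gave every gene the same spread, so it does not show how the fits do on genes as variable as some of the 27. Alternatives were RLE factors, DESeq2 1.42.0, other filters and thresholds, a replicate block, halved counts, wider fits and leaving out libraries.

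The genes and lists were chosen with earlier results of these data known. Genes were named by a fixed rule: the 10 largest ratios, the 8 highest levels, the nearest 3 on each side of a limit, and per test the 3 largest rises and falls without overlap; the remaining genes were named to account for all 27. Gene lists based on product names could not be applied, because the annotation table used here holds neither these identifiers nor product names.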

Additional observations from a re-analysis of the deposited data

Results flagged for a closer look

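In 3 of the 27 genes, PRUPE_6G321400, PRUPE_1G069800 and PRUPE_5G147300, the change between Pre0CU and 930CU went opposite ways in flower and vegetative buds, with every library of 930CU on one side of every library of Pre0CU in both. The difference was not tested, because the vegetative libraries had been used in choosing the genes. The share of all genes that sorted this way was not counted, so the 3 are a description only. Their vegetative changes were small, at -0.27, 0.26 and 0.51 on the log2 scale in that order. In vegetative buds the RNA type also differed between these collections. The libraries of PRUPE_1G223600 were sorted in the same way. It averaged 223 CPM at 930CU and 21.7 CPM at Pre0CU in flower buds, and 1.13 CPM at 930CU and 2.06 CPM at Pre0CU in vegetative buds, a difference in log2 change of 4.22 as computed. Its vegetative means lie near the level not read as expression in year B, so its vegetative direction and this size are not read as a change. PRUPE_6G321400 averaged 1393 CPM at 930CU and 176 CPM at Pre0CU in flower buds, and 17.4 CPM at 930CU and 21.0 CPM at Pre0CU in vegetative buds, a difference of 3.26. PRUPE_1G069800 averaged 40.5 CPM at 930CU and 143 CPM at Pre0CU in flower buds, and 133 CPM at 930CU and 111 CPM at Pre0CU in vegetative buds, a difference (flower minus vegetative) of -2.08. PRUPE_5G147300 averaged 3.60 CPM at 930CU and 12.6 CPM at Pre0CU in flower buds, and 16.4 CPM at 930CU and 11.6 CPM at Pre0CU in vegetative buds, a difference of -2.32. The bud types had 2 and 3 libraries per collection.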

How the results depend on the processing

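The number of genes chosen was 22 to 31 when each library was left out in turn and 18 to 39 with a minimum of 20 or 5 CPM, 30 with TMM library sizes and 25 with medians, but 101 with a minimum fold of 1.5 and 13 with 3. In those single omissions 20 of the 27 genes were always chosen. At 475CU against 0CU, the 2 rises and 2 falls among the 27 genes were 0 to 4 and 2 to 5 when 1 library was left out. Those fits called 4456 to 5229 genes in all, from 5177. Falls numbered 4 with DESeq2 (5422 genes called in all) and 4 with all 21 vegetative libraries in the fit (6274 in all). Rises numbered 0 at an FDR of 0.01 and a fold of 1.5. At 770CU against 475CU, the 15 falls were 9 to 17 (1682 to 2669 genes called in all, from 2547) when 1 library was left out, 9 (1182 in all) at the stricter threshold, and 5 (1083 in all) without the *LFY*-high libraries, which leaves fewer samples. The stricter threshold called 3138 genes at 475CU against 0CU, from 5177. In flower buds it called 4 of the 8 rises (9121 genes in all, from 11521). Rises there were 5 to 9 when 1 library was left out (10838 to 11046 genes called in all). Of the values of single called genes under all these alternatives, 818 kept their call, 84 lost it and none changed sign. The omission of *LFY*-high libraries in year A and of all 3 in year B, and the fits of 475CU and 770CU alone, were chosen after seeing the data. Beside the blocked fits given for 770CU against 475CU, whose libraries were taken as paired from the counts, the block was also run where the numbers did not pair the libraries. With a replicate block, 6 of the 27 genes rose and 4 fell at 475CU against 0CU, 17 fell at 770CU against 0CU, and in flower buds 8 rose and 14 fell. Over all genes these fits called 5149, 7575 and 11443 genes, of which 43.4%, 42.2% and 49.6% were higher. Flower buds had 2 libraries per collection, which limits the spread that could be seen.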
